A study of Junco hyemalis with 13 samples.

Results

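GNRH1, NPVF and PRLHR are 3 genes of the peptide signals that bear on gonadotropin secretion, and they were followed here in the hypothalamus of free-living male dark-eyed juncos (Junco hyemalis). They are 3 of 15363 annotated elements in the count files and 3 of the 9938 that held enough reads to be tested. The elements were found by the gene symbol given in the study's table of names, where GNRH1 is NP_001135792.1, NPVF is NP_001185621.1 and PRLHR is XP_002187776.2, all identifiers of homologous zebra finch proteins. All 3 passed the filter on low counts, set at 5 counts or more in 6 or more libraries. GNRH1 was picked because its difference between populations was already known from these same birds, and NPVF and PRLHR were added with their values in view. For all 3, differences between populations are therefore described without a test.

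The tested samples were 7 residents (J. h. carolinensis), birds that stay and breed on the shared wintering ground, and 6 migrants (J. h. hyemalis), which leave it for higher latitudes. All were males taken in March, none received an experimental treatment, the labels give no ages, and each library is 1 bird. Populations were told apart in the field by bill colour, plumage and wing, and each sample was a set of punches spanning the hypothalamus from front to back, so it pools many nuclei. In such a bulk sample a lower share of expressing cells and less transcript per cell cannot be told apart.

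GNRH1 encodes the precursor of gonadotropin-releasing hormone 1, which preoptic neurons release to drive pituitary secretion of luteinizing and follicle-stimulating hormone. NPVF encodes the precursor of gonadotropin-inhibitory hormone and related RFamide peptides, which in birds act on GnRH neurons and on the pituitary to restrain the same axis. PRLHR is a receptor for prolactin-releasing peptide, another RFamide, and is thus not a peptide gene like the other two. In mammals it is studied mostly for feeding and stress, and the receptor of gonadotropin-inhibitory hormone is a different gene. Seasonal breeding in songbirds is commonly described through the balance of the stimulating and the inhibiting peptide.

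Libraries held 4308064 to 5469786 counts in residents (median 5014150) and 4319503 to 5826833 in migrants (median 4849133). Levels are given as CPM, counts scaled by the library total and its TMM factor. The neuropeptide genes NPY, PENK, NTS, CCK and CRH, which mark hypothalamic neurons, were detected in every bird, with at least 25 counts each. Resident replicate 4 and migrant replicate 1 stood apart on the first principal component, at scores of 42.8 and 49.2, against -21.5 to 2.32 in the other birds, and both were left out together as an alternative. Of 3 tested haemoglobin genes, markers of blood, all 3 had lower estimates in residents (median log2 fold change -0.59), and their summed level was 3497 to 10380 CPM in residents and 4782 to 12700 CPM in migrants. The fourth haemoglobin gene listed, HBZ, was too low to test. Summed levels overlapped widely for the 3 oligodendrocyte genes (1017 to 3319 CPM in residents, 1069 to 2014 CPM in migrants) and the 2 microglial genes (315 to 725 CPM in residents, 355 to 832 CPM in migrants). The 5 ependymal cilia genes likewise summed to 153 to 322 CPM in residents and 169 to 397 CPM in migrants. These sums hide single genes that moved apart. Of the cilia genes, RSPH4A alone had a higher estimate in residents (log2 fold change 0.89), and 4 had lower ones, DNALI1 most (-0.42). Of the oligodendrocyte genes, 2 were higher by estimate and 1 lower. OMG, at 152.5 to 241.5 CPM in residents and 121.8 to 150.5 CPM in migrants, was among 9 of 9938 elements that separated fully this way. The part of any of these in the values that follow was not tested.

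GNRH1 was the member that differed most between populations. In residents it ran from 8.78 CPM through a median of 19.7 CPM to 29.6 CPM, and in migrants from 5.47 CPM through a median of 7.80 CPM to 8.80 CPM. Of the 7 residents, 6 lay above every migrant, and the share of all elements with that pattern is not given here. Only resident replicate 3, at 8.78 CPM, fell inside the range of migrants, just under migrant replicate 3 at 8.80 CPM. Resident replicates 2 and 4 had the most GNRH1, at 29.6 and 25.4 CPM, and resident replicates 3 and 5 the least, at 8.78 and 9.89 CPM. These levels rested on 40 to 153 counts per resident and 26 to 49 per migrant. The mean was 18.1 ± 7.83 CPM (SD, n = 7) in residents and 7.59 ± 1.13 CPM (SD, n = 6) in migrants, and the fitted log2 fold change of residents over migrants was 1.25 (standard error 0.27), or 2.37-fold.

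NPVF, although its peptides act against those of GNRH1, did not run the other way between populations. It ranged from 207.6 CPM through a median of 550.0 CPM to 877.0 CPM in residents, and from 234.6 CPM through a median of 378.0 CPM to 464.0 CPM in migrants. Of the residents, 4 lay above the highest migrant and 1, resident replicate 1, below the lowest, so that the migrants sat inside the range of the residents. The mean was 507.1 ± 211.6 CPM (SD, n = 7) in residents and 357.3 ± 87.6 CPM (SD, n = 6) in migrants, with a fitted log2 fold change of 0.50 (standard error 0.25), or 0.32 without resident replicate 2. Its 1107 to 4536 counts per resident and 1151 to 2450 per migrant made it the best measured of the 3.

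PRLHR had nearly the same range in both populations. It ran from 2.42 CPM through a median of 5.60 CPM to 8.42 CPM in residents, and from 2.11 CPM through a median of 5.93 CPM to 6.81 CPM in migrants. The mean was 5.33 ± 2.26 CPM (SD, n = 7) in residents and 5.0 ± 2.2 CPM (SD, n = 6) in migrants, with a fitted log2 fold change of 0.11 (standard error 0.34). The sign of that estimate turned, to between -0.05 and -0.04, without resident replicate 7, migrant replicate 1 or migrant replicate 2. Within each population the birds were uneven. Resident replicates 3 and 4 and migrant replicates 1 and 2 lay between 2.11 and 2.59 CPM, and the other 9 birds between 4.88 and 8.42 CPM. These 4 birds had only 9 to 15 counts, and exact Poisson 95% intervals, which cover counting error only, overlapped between the sets, reaching up to 4.76 CPM in resident replicate 4 and down to 3.19 CPM in resident replicate 1. Resident replicate 4 and migrant replicate 1, the libraries that stood apart, were among the 4.

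**Figure D1:**
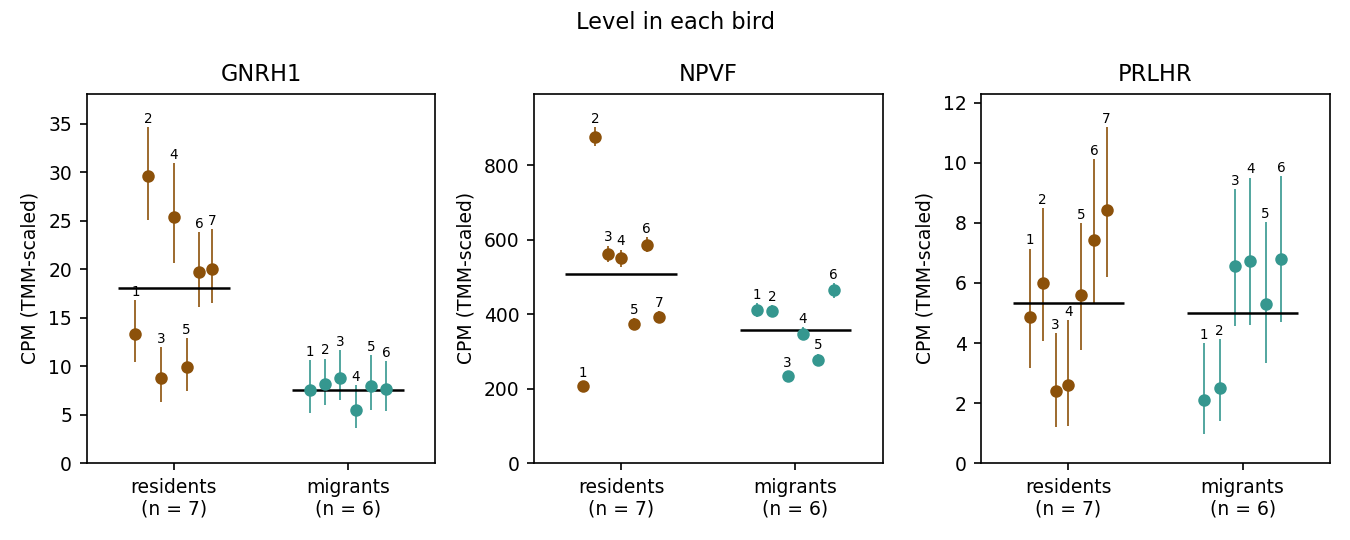
Level of GNRH1, NPVF and PRLHR in each bird, in CPM on axes that start at 0. Points are birds numbered by replicate, residents left and migrants right, bars are exact Poisson 95% intervals and black lines are means. For GNRH1, 6 residents lie above the highest migrant at 8.80 CPM, while PRLHR spans about the same range in both populations.

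The whole table gives the background for these values. For none of the 3 members did the populations separate fully, which happened for 9 of 9938 elements (0.0906%) in the direction of higher in residents and for 4 (0.0402%) in the other. By edgeR's quasi-likelihood test with Benjamini-Hochberg adjustment, 0 elements were called in either direction (0%), with an unadjusted p under 0.05 for 229 higher (2.3%) and 213 lower (2.14%). DESeq2 called 2 higher (0.0201%) and 1 lower (0.0101%), and limma-voom called 0. GNRH1 was 1 of the 2 that DESeq2 called higher. As that comparison is the one the member was chosen by, nothing is read from the call, which was lost in 8 of the 13 runs of DESeq2 that left out 1 bird. The median log2 fold change over all elements was 0.00, with quartiles at -0.12 and 0.12.

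The members also differed in how much birds of a population varied among themselves. In residents the coefficient of variation was much alike for all 3, at 43.3% of the CPM for GNRH1, 41.7% for NPVF and 42.4% for PRLHR. In migrants it was 14.9% for GNRH1, 24.5% for NPVF and 43.2% for PRLHR. Counting alone would give 10.5% in residents and 16.4% in migrants for GNRH1, so its spread in migrants was no more than counting gives on this scaling, while with total counts only the coefficient was 19.0%. Without migrant replicate 4, the lowest, the GNRH1 coefficient in migrants was 6.37%. For NPVF counting accounts for little, 1.98% in residents and 2.39% in migrants, and nearly all of its spread lay between birds. For PRLHR counting gives 19.3% in residents and 20.2% in migrants. Whether the spreads differed between populations is a question about the same contrast and was left as a description.

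**Figure D2:**
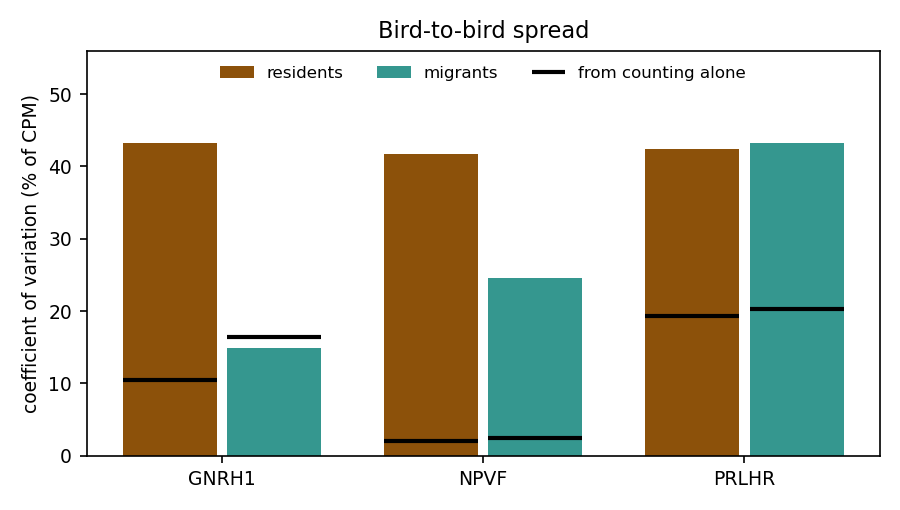
Bird-to-bird coefficient of variation of GNRH1, NPVF and PRLHR, in percent of the CPM, for 7 residents and 6 migrants. Black lines mark the value that counting alone would give. In migrants the GNRH1 bar, at 14.9% with TMM scaling, lies close to its counting line at 16.4%.

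The balance between transcripts of the stimulating and the inhibiting peptide was taken as GNRH1 counts for every 100 NPVF counts of the same library. These data hold no peptide levels, so the balance is one of RNA only. Library scaling drops out of this ratio. It is not per length of transcript, as the files hold no lengths, so it compares birds and does not say which transcript was more abundant. The ratio was 1.56 in the lowest resident, 3.37 at the median and 6.41 in the highest, against 1.57, 1.91 and 3.75 in migrants. All 6 migrants lay inside the range of the residents. Residents 1, 7 and 4 had the highest ratios of all birds, at 6.41 (exact binomial 95% interval 4.97 to 8.16), 5.12 (4.19 to 6.19) and 4.61 (3.73 to 5.65). The lowest ratio of all was also a resident's, that of replicate 3 at 1.56 (1.11 to 2.13). Among migrants, replicate 3 had 3.75 (2.74 to 5.02) and the other 5 had 1.57 to 2.87. Put the other way, the median bird had 29.7 NPVF counts for each GNRH1 count in residents and 52.4 in migrants.

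The mean log2 ratio was -4.82 ± 0.68 (SD, n = 7) in residents and -5.53 ± 0.50 (SD, n = 6) in migrants, a difference of 0.72 in log2, or 1.64-fold. That difference was about as large as the spread between birds of a population, pooled SD 0.60, and smaller than the GNRH1 difference alone because NPVF also averaged higher in residents. Resident replicate 1 had the highest ratio with a GNRH1 level of 13.3 CPM, below the median of residents, and the lowest NPVF of all birds. Resident replicate 2 had the highest level of both genes and a ratio of 3.37, the median of residents. Migrant replicate 3 had a ratio above that median with the lowest NPVF among migrants and a GNRH1 level of 8.80 CPM. Counting error on a single bird's log2 ratio averaged 0.17 in residents and 0.24 in migrants (root mean square), so most of the spread of the ratio lay between birds in both populations.

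**Figure D3:**
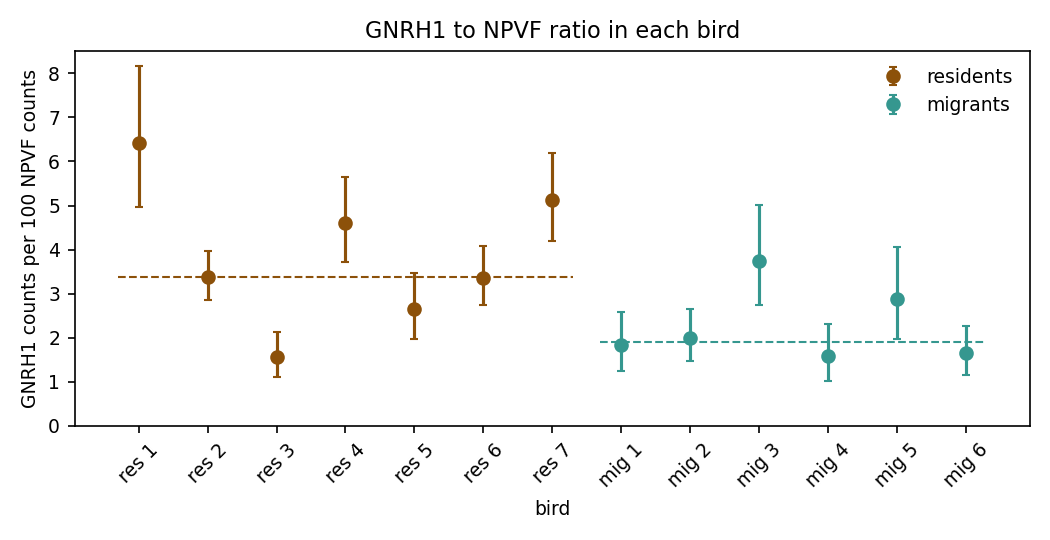
GNRH1 counts per 100 NPVF counts in each bird, residents left and migrants right, with exact binomial 95% intervals and the median of each population as a dashed line. Resident replicates 1, 4 and 7 lie above every migrant, and resident replicate 3, at 1.56, lies lowest of all.

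Relations between the members were computed within each population, so they do not use the difference between populations. NPVF and PRLHR were still added with their values in view, so the choice of members was not blind to these data. For 6 relations, Pearson's r of log2(CPM + 1) and Spearman's rho were tested by exact two-sided permutation over all pairings of birds and adjusted over the 6. None passed, and 0 of the 6 had an unadjusted p under 0.05. With 6 or 7 birds these tests find only close relations.

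GNRH1 with NPVF gave r = 0.49 in residents (exact p = 0.272, adjusted 0.854, n = 7), with rho = 0.43 (exact p = 0.354, adjusted 0.711). Resident replicate 2 was highest in both, while replicate 3 paired low GNRH1 with 562 CPM of NPVF and replicate 7 paired 20.1 CPM of GNRH1 with 392 CPM of NPVF. Without replicate 3 r was 0.76, and without replicate 2 it was 0.23. Without the 2 birds farthest from the median of GNRH1, replicates 3 and 5, r was 0.93 in the 5 left, so the estimate depends on which birds enter. In migrants r was -0.27 (exact p = 0.638, adjusted 0.854, n = 6) and rho -0.49 (exact p = 0.356, adjusted 0.711). Without migrant replicates 3 and 4, the farthest in GNRH1, r was -0.42, while without replicate 3 alone it was 0.13 and without replicate 4 alone -0.78. The difference in sign between populations was not tested. The spread of GNRH1 in migrants was also close to what counting gives.

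GNRH1 with PRLHR gave r = 0.29 in residents (exact p = 0.501, adjusted 0.854, n = 7) and rho = 0.43 (exact p = 0.354, adjusted 0.711), with r = -0.17 without replicates 3 and 5. Without resident replicate 4, the library apart on the first principal component, r was 0.69, and without replicate 3 alone -0.12. In migrants r was -0.23 (exact p = 0.733, adjusted 0.854, n = 6) and rho -0.14 (exact p = 0.803, adjusted 0.963), with r = -0.06 without replicates 3 and 4. NPVF with PRLHR gave r = -0.09 in residents (exact p = 0.854, adjusted 0.854, n = 7) and rho = 0.14 (exact p = 0.783, adjusted 0.963), with r = -0.50 without replicates 1 and 2. In migrants r was -0.41 (exact p = 0.396, adjusted 0.854, n = 6) and rho 0.03 (exact p = 1.0), with r = -0.09 without replicates 3 and 5.

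**Figure D4:**
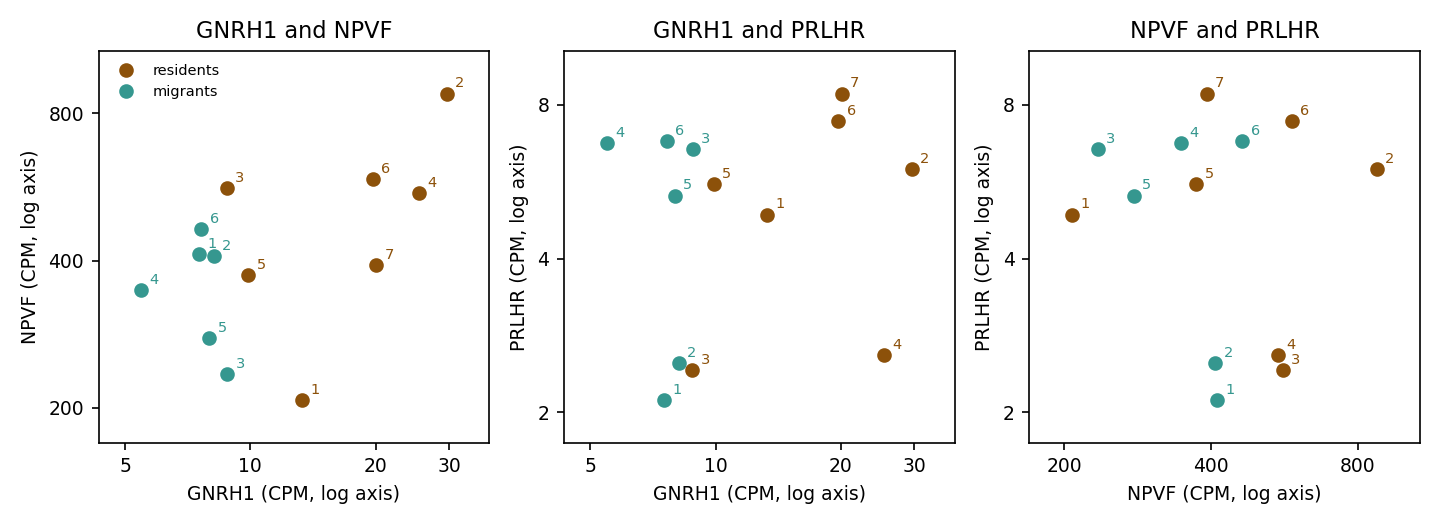
CPM of GNRH1, NPVF and PRLHR plotted pairwise on log axes, with 1 point per bird labelled by replicate, residents in brown and migrants in teal. In the first panel resident replicate 3 pairs low GNRH1 with 562 CPM of NPVF, and the 4 birds low in PRLHR form the lower row of the other panels.

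Depth, the first principal component and blood were set beside each member in the same way, as 18 relations within populations. None passed after adjustment. The closest was PRLHR with the total count in residents (r = 0.92, exact p = 0.00675, adjusted 0.121, n = 7), with rho = 0.82 (exact p = 0.0341, adjusted 0.614). It was 0.91 without replicates 4 and 6, the farthest in depth. The shallowest residents, replicates 4 and 3, were the 2 with least PRLHR, although CPM already scales for depth. In migrants the same relation had r = -0.37 (exact p = 0.517, adjusted 0.804, n = 6), rho = 0.26 (exact p = 0.658, adjusted 0.846) and r = 0.79 without replicates 2 and 5. For GNRH1 and NPVF, r with the total count lay between 0.05 and 0.43 in the 2 populations, but for GNRH1 in residents it was 0.24 with all birds and 0.89 without replicates 4 and 6. With the first principal component, r in residents and migrants was 0.55 and -0.08 for GNRH1, 0.40 and 0.35 for NPVF, and -0.59 and -0.64 for PRLHR. These values depend on which birds enter. Without the 2 farthest on the component, resident replicates 4 and 5, r in residents was 0.31, 0.81 and -0.27 for the 3 genes. Without migrant replicates 1 and 3, r in migrants was -0.40, -0.43 and 0.92, so that NPVF and PRLHR changed sign. With blood, as summed HBAA and HBAD, it was 0.28 and -0.42 for GNRH1, 0.05 and -0.11 for NPVF, and -0.67 and 0.27 for PRLHR. Without migrant replicates 2 and 5, r with blood in migrants was -0.82 for GNRH1, 0.72 for NPVF and -0.35 for PRLHR. Without resident replicates 4 and 5, r in residents was -0.51 for GNRH1, -0.30 for NPVF and -0.52 for PRLHR. These estimates, too, depend on which birds enter.

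Other genes of the pathway were read from 4 lists, of RFamide receptors, sex steroid signalling, photoperiod input and neuropeptides, 15 genes besides the members, all of which could be tested. None of the 15 passed edgeR's quasi-likelihood test in either direction (adjusted p of at least 0.996), as for the table as a whole (0%). By estimate 9 were higher and 6 lower in residents, with a median log2 fold change of 0.06, and 3 had an unadjusted p under 0.05. These 3 were GREB1 and LOC100221986, higher in residents, and NPY, lower. Over all elements tested, 50.4% were higher by estimate, and an unadjusted p under 0.05 was found for 2.3% higher and 2.14% lower. DESeq2 and limma-voom called 0 of the 15 as well. The lists were drawn up with earlier results of these birds known.

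Among receptors, LOC100221986, annotated as prolactin-releasing peptide receptor-like, had a larger estimate than PRLHR. It ran from 1.79 CPM through a median of 2.42 CPM to 4.83 CPM in residents, and from 0.412 CPM through a median of 0.983 CPM to 1.88 CPM in migrants. Of the residents, 6 lay above the highest migrant, a pattern whose share over all elements is not given here. Counts were only 10 to 26 per resident and 2 to 8 per migrant, and the log2 fold change of 1.40 (standard error 0.39) did not pass. The authors counted only uniquely aligned read pairs, so reads that fit both this element and PRLHR would have been left out, which could not be examined. QRFPR, a receptor for the RFamide peptide QRFP, had 7.04 ± 4.21 CPM (SD, n = 7) in residents and 4.68 ± 1.43 CPM (SD, n = 6) in migrants, a log2 fold change of 0.58 (standard error 0.35), or 0.32 without resident replicate 2.

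Of the 3 sex steroid genes, GREB1, an estrogen-induced cofactor of the estrogen receptor, ran from 19.4 CPM through a median of 30.5 CPM to 40.8 CPM in residents and from 12.6 CPM through a median of 18.1 CPM to 24.8 CPM in migrants. Its log2 fold change was 0.72 (standard error 0.18), and that of HSD3B1, a steroid-synthesizing dehydrogenase, was -0.19 (standard error 0.31). The HSD3B1 estimate was -0.010 without resident replicate 7 and -0.34 without both libraries that stood apart. Of the 4 photoperiod genes, all of whose estimates lay between -0.25 and 0.12, the melatonin receptor MTNR1B had -0.25 (standard error 0.28) and the melatonin receptor MTNR1A 0.06 (standard error 0.19). Among 6 neuropeptide genes NPY, which stimulates feeding, had 491.7 ± 123.8 CPM (SD, n = 7) in residents and 713.8 ± 270.2 CPM (SD, n = 6) in migrants, a log2 fold change of -0.54 (standard error 0.21). CRH, which starts the stress axis, had 0.46 (standard error 0.31). Without migrant replicate 1 the NPY estimate was -0.34, without resident replicate 4 as well -0.31, and without resident replicate 2 that of CRH was 0.25. The MTNR1B estimate ran from -0.38 without migrant replicate 1 to -0.096 without migrant replicate 2. None of these passed. The estimate of MTNR1A changed sign with library number as a covariate and in 4 fits that left out birds.

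**Figure D5:**
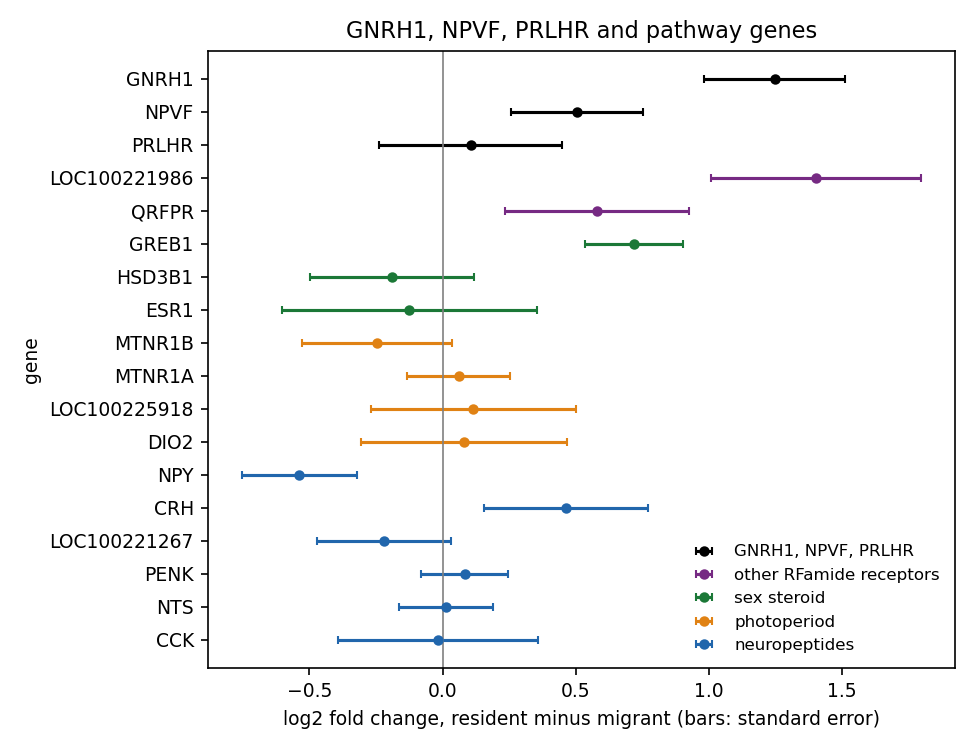
Log2 fold change of residents over migrants for GNRH1, NPVF and PRLHR (black) and the 15 other pathway genes, with the standard error of edgeR's fit as bars. GNRH1, at 1.25, and LOC100221986, at 1.40, lie farthest to the right, and NPY, at -0.54, farthest to the left.

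Within populations, the members were also set against the same 15 genes, as 90 relations tested by exact two-sided permutation. None passed after adjustment (smallest adjusted p 0.250), and 9 had an unadjusted p under 0.05. The smallest p was that of GNRH1 with PENK, the proenkephalin gene, in residents (r = 0.89, exact p = 0.00774, adjusted 0.250, n = 7), with rho = 0.93 (exact p = 0.00675, adjusted 0.375) and r = 0.95 without replicates 3 and 5. In migrants GNRH1 with PENK had r = 0.79 (exact p = 0.0208, adjusted 0.250, n = 6) and rho = 0.83 (exact p = 0.0583, adjusted 0.568), with r = 0.40 without replicates 3 and 4. The smallest p of GNRH1 in migrants was with HSD3B1 (r = 0.87, exact p = 0.0167, adjusted 0.250), where residents had r = -0.06. As the spread of GNRH1 in migrants was close to what counting gives, each of its relations in that population has this limit. GNRH1 with MTNR1A had r = 0.89 in residents (exact p = 0.0157, adjusted 0.250, n = 7), and 0.70 without replicates 3 and 5. In migrants that pair had r = -0.66 (exact p = 0.108, adjusted 0.585, n = 6), and -0.18 without replicates 3 and 4. PRLHR with MTNR1B in residents had r = 0.86 (exact p = 0.00853, adjusted 0.250, n = 7), rho = 0.89 (exact p = 0.0123, adjusted 0.375) and r = 0.63 in the 5 birds nearest the median of PRLHR. That pair had r = 0.11 in migrants. Resident replicates 3 and 4, the shallowest and the lowest in PRLHR, also had the least MTNR1B, at 2.85 and 4.40 CPM. The part of depth in this relation was not tested. For NPVF the closest was NTS, the neurotensin gene, in migrants, with r = 0.89 (exact p = 0.0153, adjusted 0.250, n = 6), rho = 0.94 (exact p = 0.0167, adjusted 0.375) and r = 0.52 without replicates 3 and 5. NPVF with NTS had r = 0.69 in residents, and -0.16 without the 2 residents farthest from the median of NPVF.

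Finally, the named genes whose levels across the 13 birds were most like those of each member were listed, after each population mean was removed and with no test. They were taken from the 976 tested elements, members aside, whose symbol starts with a letter and is not a LOC number. For GNRH1 they were YIPF6, a Golgi membrane protein (r = 0.85), the beta-tubulin TUBB4B (r = 0.80) and ARRB1, beta-arrestin 1, which ends signalling of G protein-coupled receptors (r = 0.79). For NPVF they were the small GTPase-like RABL3 (r = 0.87), RER1, which returns proteins to the endoplasmic reticulum (r = 0.84), and PDCD5 (r = 0.83). For PRLHR they were the zinc transporter SLC30A7 (r = 0.84), the inositol phosphatase MINPP1 (r = 0.79) and the sialyltransferase ST6GAL2 (r = 0.79). Over all elements, 2.5% had an r above 0.63 with GNRH1 and above 0.67 with NPVF and PRLHR, and 6, 1 and 4 elements lay above the best named gene of each member. All share the libraries and their scaling. Deviations of both populations were pooled, and residents varied more in log2 CPM of GNRH1 (SD 0.67 against 0.24) and NPVF (0.66 against 0.38). For these 2 members r therefore rests mostly on residents. With the population means kept, r of the listed genes ran from 0.54 (RER1) to 0.81 (ARRB1), with 0.63 for YIPF6 and 0.60 for RABL3. With the means removed, r with QRFPR was 0.71 for GNRH1, 0.51 for NPVF and 0.26 for PRLHR. With the receptor-like LOC100221986 it was 0.24, 0.135 and -0.29 in the same order. For NPVF and PRLHR these values pool opposite signs, positive in residents and negative in migrants. NPVF with QRFPR had r = 0.75 in residents and -0.47 in migrants, and PRLHR with LOC100221986 had 0.12 and -0.68.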

How the data were processed

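Hypothalamic RNA of 13 male juncos, 7 residents and 6 migrants, was sequenced as poly(A) libraries, 1 per bird, and populations were taken from the sample titles. The authors trimmed reads with Trimmomatic 0.33, mapped them with STAR 2.5.3a to the junco draft genome and counted uniquely aligned read pairs with featureCounts, and they deposited raw counts for 15363 elements annotated by homology to zebra finch proteins. The submitters' notes also name GSNAP and Subread 2.0.0. Reads shared by near-identical genes were thus lost before deposit, and no strand setting was stated. Symbols came from the study's table of names, which covers 1124 of the 9938 elements tested.

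Elements reaching 5 counts in 6 or more libraries were fitted with edgeR 4.0.16 (TMM, quasi-likelihood test, Benjamini-Hochberg at 0.05) in R 4.3.3, with DESeq2 1.42.0 and limma-voom (limma 3.58.1) as alternatives. Standard errors are the log2 fold change over the square root of F. Relations used log2(CPM + 1), a pseudocount of 1, and exact permutation (numpy 2.4.6, scipy 1.17.1). Intervals of 95% are exact (Clopper-Pearson for ratios, Poisson for CPM) and cover counting error only. Named genes are the 3 members, the 2 genes of smallest p per pathway list, and the 3 most alike per member. Others are named where a relation or a marker list singled them out. The members, lists and rules were chosen with earlier results of these data known. The fits and permutations were tested on simulated data. No 2 libraries of a population agreed within sampling noise (mean chi-square per element at least 7.11). No genome was used, so no coordinates or sequences are given. One pathway gene is not reported here.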

Additional observations from a re-analysis of the deposited data

Results flagged for a closer look

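Of 46 sets of values examined for a bird far from the rest of its population, on CPM, log2(CPM + 1) or the GNRH1 to NPVF ratio, 4 stood out, where chance gives about 1 set in 20. The sets are not independent, as the same levels enter on both scales, and LOC100221986 in residents was flagged on each. For GNRH1 on the log scale, migrant replicate 4 lay below the other migrants by a gap of 0.66 of the whole range. Resident replicate 6 was far above the other residents for LOC100221986, with a gap of 0.737 of the range in CPM and 0.658 on the log scale. For HSD3B1, resident replicate 7 lay below the other residents by a gap of 0.649 of the range on the log scale.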

How the results depend on the processing

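The count of elements past the threshold was 0 in each direction under 21 of 22 alternatives, and DESeq2 gave 2 higher and 1 lower. With each bird left out in turn, the DESeq2 adjusted p of GNRH1 ran from 0.00105 to 0.103, and the call was lost on leaving out any of resident replicates 2, 4, 6 and 7 and migrant replicates 1, 4, 5 and 6. These DESeq2 runs were chosen after seeing the data. By edgeR without each bird, the log2 fold change was 1.08 to 1.36 for GNRH1, 0.32 to 0.64 for NPVF and -0.05 to 0.23 for PRLHR, and the difference in log2 ratio was 0.57 to 0.91. Under the other alternatives the ratio difference was 0.60 to 0.82. The population difference of the ratio was lowest without resident replicate 1 and highest without resident replicate 3. With library number as a covariate, the estimate was 1.12 (standard error 0.34) for GNRH1, 0.36 (0.31) for NPVF and 0.18 (0.40) for PRLHR. Library numbers 10, 11, 13 and 14 were all residents and the highest of a migrant was 9, so library number is partly confounded with population.

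Replicate numbers did not pair the birds, as 0 of 6 same-numbered pairs had correlated deviations over 0.1 (-0.19 to 0.06). With the replicate block, which drops resident replicate 7, 0 elements were called, and the estimates were 1.11 for GNRH1, 0.48 for NPVF and -0.01 for PRLHR, with a ratio difference of 0.63.

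No relation between members passed under any alternative run, but several turned sign. NPVF with PRLHR became 0.14 in residents and 0.029 in migrants by Spearman's rho, and GNRH1 with PRLHR became 0.011 in migrants with total counts only. With single birds left out, r ran from 0.23 to 0.76 in residents and -0.78 to 0.13 in migrants for GNRH1 with NPVF, and from -0.12 to 0.69 and -0.48 to 0.36 for GNRH1 with PRLHR. For NPVF with PRLHR it ran from -0.26 to 0.027 in residents and -0.79 to -0.24 in migrants. MTNR1A turned to -0.089 with library number as a covariate and to -0.010 without both resident replicate 4 and migrant replicate 1, and it ran from -0.014 to 0.13 without single birds. The cause was not tested. Counts of 9 to 47 limit PRLHR, and 26 to 49 per migrant limit GNRH1.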
